A study of Homo sapiens with 120 samples.

Results

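The genes ATF3, FOS, FOSL1, JUN, JUNB, JUND, EGR1, IER2 and IER3, which belong to the AP-1 and immediate early response, were followed across 120 RNA sequencing libraries of CFPAC-1, an established human pancreatic ductal adenocarcinoma cell line. They were taken by name from the deposited expression table and make up 9 of its 27118 distinct names (30504 rows), each on a single row. They were selected on their names; the rule used measured values only to pick the row of highest mean FPKM where a name is repeated, which did not occur. Earlier results of these libraries were known when the names were proposed, so the p-values given for the members are not independent evidence. Values were FPKM, fragment counts divided by transcript length and library total, so levels of different genes can be set side by side per length. The first experiment used untreated cells and held 10 microrafts (tiny detachable growth surfaces) with 2 cells, 10 with 1 cell and 10 empty ones, 5 captures each with 2 cells, 1 cell and no cell on the Fluidigm C1 (a microfluidic capture instrument), 3 water libraries and 4 bulk libraries of about 10000 cells. The second held rafts in 4 arms, which were untreated, given saline, given 2 nM gemcitabine or given 5 nM gemcitabine, a nucleoside drug that stops DNA replication. Each arm had 8 rafts scored as proliferative and 8 scored as nonproliferative, and the labels do not say how many cells each of them held. Each arm also had 1 water library, which makes 7 over both experiments.

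JUN, JUNB and JUND proteins pair with FOS-family proteins such as FOS and FOSL1 to form AP-1, a dimer that binds DNA and drives growth and invasion programs. Immediate early genes are transcribed within minutes of a stimulus such as a growth factor, serum or stress, without new protein synthesis, through kinase cascades that act on factors already bound at their promoters. ATF3 is a related factor that is low in resting cells and is induced by DNA damage and other stresses, and EGR1 is a zinc finger factor induced through the same cascades as FOS.

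Promoter sequences were available for 7 members, with 2 start sites for ATF3 (RefSeq, GRCh38.p14, 250 bases before to 50 after the start). The windows of EGR1 and FOS are shown because these were the 2 members with the largest excess in C1 captures over rafts with 1 cell. Capitals mark the CArG box, the element bound by serum response factor, and TGACG, the core of the cyclic AMP response element, on either strand, so that TGACG read from the other strand appears as CGTCA.
EGR1, chr5:138465229-138465528, plus strand: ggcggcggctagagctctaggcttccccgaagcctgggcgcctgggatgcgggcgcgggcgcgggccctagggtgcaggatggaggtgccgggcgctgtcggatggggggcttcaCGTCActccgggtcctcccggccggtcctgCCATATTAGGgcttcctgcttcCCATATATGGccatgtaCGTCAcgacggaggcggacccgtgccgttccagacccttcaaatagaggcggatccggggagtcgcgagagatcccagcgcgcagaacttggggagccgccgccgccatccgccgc
FOS, chr14:75278578-75278877, plus strand: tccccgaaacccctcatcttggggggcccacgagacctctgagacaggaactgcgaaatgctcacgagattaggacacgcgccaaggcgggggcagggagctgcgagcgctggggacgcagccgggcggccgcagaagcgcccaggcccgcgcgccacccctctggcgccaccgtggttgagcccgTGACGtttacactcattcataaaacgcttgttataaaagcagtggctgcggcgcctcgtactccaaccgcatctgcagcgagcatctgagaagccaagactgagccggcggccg
The EGR1 window held 2 CArG boxes and 2 copies of TGACG. The FOS window held 1 copy of TGACG and no CArG box. Each window stops 250 bases before the start, so a CArG box further upstream would have been missed. Of 35116 promoter windows of the same length, 1.29% held a CArG box and 24.6% held TGACG. The full element TGACGTCA, which contains TGACG, was found in 1.85% of windows and among the members in that of JUND only, while the AP-1 site TGANTCA was found in 7.71% of windows and in none of the 8 member windows. Neither ATF3 window held any of these letters. ATF3 sequence outside these windows, including any other start site, was not searched. The matches describe these windows and were not tested for binding.

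The files hold no read counts, so the depth of the libraries is unknown, and an FPKM listed at 0 can be a failed estimate as well as an absent transcript. The libraries differed widely in content. Genes detected at an FPKM of 1 or more ran from 4804 to 9772 in rafts with 1 or 2 cells, from 8097 to 11752 in C1 captures with cells, from 8570 to 10581 in bulk, and from 7 to 10424 in the gemcitabine experiment. As a check on the cell line, the levels of the 9 ductal and epithelial markers in the table were summed. The sum lay between 1730.9 and 5350.3 FPKM in rafts with cells. It lay between 1552.8 and 6526.1 FPKM in C1 captures with cells and between 1309.5 and 1921 FPKM in bulk. CFTR was 0 in rafts with 2 cells, in C1 captures with cells and in bulk. Of these groups, only rafts with 1 cell held CFTR above 0. In the isolation experiment no separate cultures are named, so each group counts as 1 sample and its comparisons are values without a test. C1 captures and rafts also fall into different sets of libraries by their titles, so isolation method and library set cannot be told apart.

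In bulk, FOSL1, which encodes the FOS-family protein FRA-1, stood far above the other members, and ATF3 was at the bottom. FOSL1 had 172.16, 113.63, 260.36 and 186.32 FPKM in the 4 bulk libraries and its mean ranked 711th among all names. IER3, an early gene with roles in survival signalling, had 26.56, 13.06, 41.14 and 48.31 FPKM. No library of IER3 reached the lowest of FOSL1. The means of IER2 (5.40 FPKM), JUND (5.08), EGR1 (2.50), FOS (2.43), JUN (2.10) and JUNB (1.29) followed, and neighbours in that order overlapped in their single libraries. ATF3 had 0.71, 0, 0.91 and 0 FPKM, with a mean of 0.405. In bulk, fewer cells that express a gene and less of its RNA per cell cannot be told apart.

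FOS was low or unlisted in rafts and high in C1 captures. Rafts with 1 cell had 11.89 FPKM in 1 library and 0 in the other 9, whereas C1 captures with 1 cell had 771.23, 163.34, 199.69, 26.82 and 129.13 FPKM. Rafts with 2 cells ran from 0 to 25.78 FPKM with a median of 2.63, and C1 captures with 2 cells had 396.08, 334.76, 381.59, 486.28 and 277.91 FPKM. In neither comparison did the groups overlap. Bulk had 2.67, 0, 3.41 and 3.63 FPKM, under all 10 C1 captures with cells. On the log2(FPKM + 1) scale, which understates the change of low genes, FOS averaged 0.37 ± 1.17 in rafts with 1 cell (SD, n = 10) and 7.28 ± 1.71 in C1 captures with 1 cell (SD, n = 5), a difference of -6.92. With 2 cells the means were 1.86 ± 2.04 in rafts (n = 10) and 8.53 ± 0.30 in C1 captures (n = 5), a difference of -6.67.

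EGR1 followed FOS with more spread. Rafts with 1 cell had 20.65 and 10.80 FPKM in 2 libraries and 0 in 8, against 49.80, 1.89, 7.92, 36.19 and 130.77 FPKM in C1 captures with 1 cell. Rafts with 2 cells ran from 0 to 21.96 FPKM (median 1.14), against 424.74, 11.79, 100.18, 148.54 and 40.50 FPKM in C1 captures with 2 cells. Both pairs of groups overlapped. With 1 cell the log2 mean over the 10 rafts was 0.80 ± 1.70 (SD) and that over the 5 C1 captures was 4.52 ± 2.18, a difference of -3.72, and with 2 cells the difference was -4.65.

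ATF3 separated the methods with 2 cells but not with 1. It was 0 in all 10 rafts with 1 cell, and C1 captures with 1 cell had 6.68, 0.30 and 3 times 0 FPKM. Rafts with 2 cells had 0.63 FPKM in 1 library and 0 in 9, whereas C1 captures with 2 cells had 3.16, 4.61, 15.50, 5.61 and 6.11 FPKM. The groups with 2 cells did not overlap, at log2 means of 0.07 ± 0.22 in rafts and 2.83 ± 0.74 in C1 captures and a difference of -2.76, and all 5 of these C1 values lay above the bulk maximum of 0.91 FPKM.

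FOSL1 went the other way. Rafts with 1 cell ran from 89.5 to 1657.8 FPKM (median 433.15), against 0, 38.23, 9.26, 61.99 and 147.78 FPKM in C1 captures with 1 cell. Rafts with 2 cells ran from 335.57 to 1092.8 FPKM (median 575.65), against 0, 115.75, 98.44, 13.75 and 20.05 FPKM in C1 captures with 2 cells. With 1 cell the ranges overlapped in 1 raft, and with 2 cells they did not overlap. On the log2 scale the means with 2 cells were 9.21 ± 0.53 in rafts and 4.36 ± 2.77 in C1 captures, a difference of 4.86, and the difference with 1 cell was 4.24. The 2 members of the FOS family thus stood on opposite sides of the comparison between rafts and C1 captures.

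**Figure D1:**
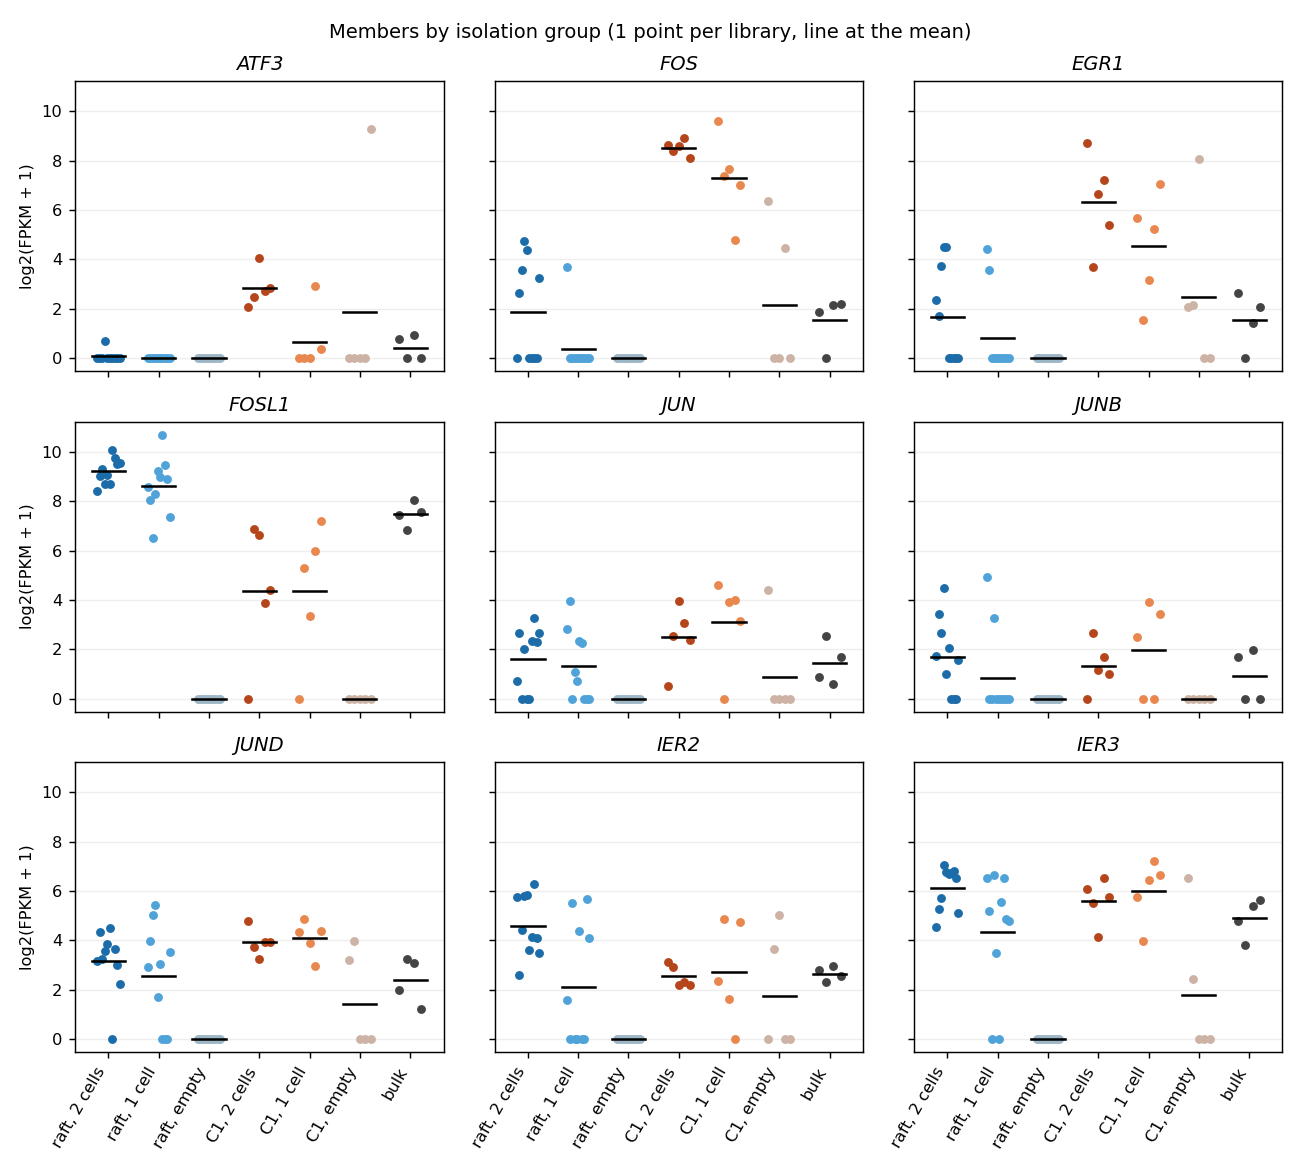
Level of each member, log2(FPKM + 1), by isolation group, with 1 point per library and a line at the mean. The means of FOS and EGR1 were highest in C1 captures with cells, that of FOSL1 was highest in rafts with cells, and all 9 members lay at 0 in the 10 empty rafts.

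The other members differed less between the methods. Rafts with 1 cell lay below C1 captures with 1 cell by a log2 difference of -1.81 for JUN, -1.66 for IER3, -1.52 for JUND, -1.15 for JUNB and -0.60 for IER2, and all 5 genes overlapped between the groups. For IER2 the sign turned with the raft set, at -1.30 with set 1 alone and 0.11 with set 2 alone. IER2, an early gene whose protein acts in the nucleus, lay higher in rafts with 2 cells than in C1 captures with 2 cells, at 5.12 to 77.05 FPKM (median 18.45) against 7.74, 6.63, 3.61, 3.95 and 3.63 FPKM. That difference was 2.05 and the groups overlapped. In the comparison with 2 cells JUND (-0.77), JUN (-0.89), JUNB (0.38) and IER3 (0.53) differed by less than 1 SD of the raft group.

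The counts are given beside the same shares over the whole table, with no test of the difference. With 1 cell, 8 members passed the filter of detection in at least 5 libraries of the groups compared (ATF3 did not), and 2 of them were lower in rafts by a log2 difference of at least 2, against 16.4% of the 10176 names measured. FOSL1 alone was higher by that margin, against 12.4%. FOS alone was lower with no overlap, against 7.52%, and no member was higher with no overlap, against 1.87%. With 2 cells, 3 of 9 were lower (ATF3, FOS and EGR1) against 12.3%, and 2 were higher (FOSL1 and IER2) against 12.9%. ATF3 and FOS were lower with no overlap, against 6.94%, and FOSL1 was higher with no overlap, against 5.2%. The median over the members was -1.59 with 1 cell and -0.77 with 2 cells, against medians over all names of -0.27 and 0.02. In the comparison with 1 cell the count of members lower by at least 2 was 4 without the C1 capture 25. In that with 2 cells the count of members higher by that margin was 1 without any of rafts 6, 9, 11 and 16 or C1 captures 43, 61 and 89, and 1 with all libraries rescaled to the same total.

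Within rafts, part of the FOS and EGR1 signal went with the library set. The rafts fall into 2 sets by their titles, with 5 rafts of each cell number in each set. Among rafts with 2 cells, EGR1 had 4.04, 2.28, 12.26, 21.90 and 21.96 FPKM in set 1 and 0 in all 5 rafts of set 2. FOS was above 0 in 4 of 5 rafts of set 1 and in 1 of 5 of set 2, and JUNB in 5 of 5 of set 1 and 2 of 5 of set 2. Among rafts with 1 cell, every value above 0 of FOS (1 raft), EGR1 (2 rafts) and JUNB (2 rafts) was in set 1. The FOS difference from C1 captures with 1 cell was -6.55 with set 1 alone and -7.28 with set 2 alone, and with 2 cells it was -5.46 with set 1 and -7.88 with set 2. The EGR1 difference with 1 cell was -2.92 with set 1 and -4.52 with set 2, and with 2 cells it was -2.97 with set 1 and -6.33 with set 2. JUNB with 2 cells turned from 1.36 with set 1 to -0.59 with set 2, so no direction is given for it. With set 2 alone, 4 members were lower than C1 captures with 1 cell by at least 2, while FOSL1 stood further above them, at 4.71 with set 2 and 3.76 with set 1.

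The blank libraries separated the methods as well. All 9 members were 0 in the 10 empty rafts and in the 7 water libraries, while 12.1% of all names were above 0 in at least 1 empty raft and 11.4% in at least 1 water library. Of the 5 empty C1 captures, each had at least 1 member above 0, and 7 of the 9 members were above 0 in at least 1 of them, against 38.9% of all names and 64.5% of the names seen in a C1 capture with 1 cell. FOS had 82.21 and 21.02 FPKM in 2 empty captures, EGR1 had 269.44, 3.24 and 3.47 FPKM in 3, and ATF3 had 628.95 FPKM in 1. That ATF3 value, in a capture with 865 genes detected, lay above every C1 capture with a cell. FOSL1 and JUNB were 0 in all 5 empty captures.

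The 6 members that passed the filter averaged higher in C1 captures with 1 cell than in empty ones. Their median difference was 2.45, against 1.85 over all names. Among those that did not pass, ATF3 was lower with a cell (-1.20), and FOSL1 (4.37) and JUNB (1.97) were higher. The part of the empty-capture signal in captures with cells was not tested. FOS averaged 7.28 ± 1.71 in C1 captures with 1 cell and 2.17 ± 3.04 in empty ones on the log2 scale (SD, n = 5 each), a difference of 5.12. IER3 had 52.93, 14.89, 85.24, 149.56 and 100.76 FPKM in captures with 1 cell, against 91.28, 4.44 and 3 times 0 FPKM in empty ones, a difference of 4.22. JUND differed by 2.66, JUN by 2.24, EGR1 by 2.06 and IER2 by 0.98. These ranges overlapped for all 6 members that passed the filter, while 18.9% of names were higher with no overlap. The 5 members past a difference of 2 stand beside 47.5% of the 6942 names measured. That count was 3 without any of C1 captures 5, 17 and 71 or empty capture 31.

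Against bulk, FOS and EGR1 stood out in the C1 captures and no member in the rafts. C1 captures with 1 cell differed from bulk by 5.73 for FOS, with no overlap, by 3.0 for EGR1 and by -3.09 for FOSL1, and 11.2% of 9665 names were higher and 17.3% lower by at least 2. Of all names, 12% were higher and 13.8% lower with no overlap. JUND (1.71), JUN (1.70), IER3 (1.11), JUNB (1.05) and IER2 (0.07) were also higher, short of that margin. The count of higher members was 4 without bulk library 1. Rafts with 1 cell differed from bulk by 1.14 for FOSL1, 0.18 for JUND, -0.11 for JUN, -0.53 for IER2, -0.55 for IER3 and -0.72 for EGR1. For single sets, rafts were compared only with the 2 bulk libraries placed in the same set by their titles, so the bulk reference changed too. The title of bulk library 3, placed in set 2, reads Rnd1, so its place is uncertain. Only the sign of FOSL1 was shared by both sets. With set 1 alone JUND differed by 1.20, EGR1 by 0.28, IER3 by 0.07, JUN by 0.01 and IER2 by -1.13. With set 2 alone JUND differed by -0.83, EGR1 by -1.73, IER3 by -1.16, JUN by -0.23 and IER2 by 0.08, so no direction is given for these 5. None of these 6 was past 2 in either direction, against 1.62% higher and 9.74% lower among 9648 names. None was free of overlap, against 0.591% of names higher and 2.26% lower in that way.

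Rafts with 2 cells lay above rafts with 1 cell when both raft sets were pooled. For 2 cells minus 1 cell, all 8 members measured differed upward, by a median of 0.88 against 0.40 over all 10660 names. With set 1 alone JUN differed by -0.63 and JUND by -0.18, and with set 2 alone EGR1 was 0 in both groups, so the direction of these 3 depends on the set. IER2 had 5.12 to 77.05 FPKM in rafts with 2 cells and was above 0 in all 10, against 0 to 50.16 FPKM in rafts with 1 cell, of which 5 were at 0. Its difference of 2.48 was the only one past 2 (2.88% of names), none was past it downward (0.0188%), and no member was free of overlap (0.00938% of names higher in that way). Without rafts 5, 12 or 15 with 1 cell, each left out alone, 2 members were past it. IER3 differed by 1.77 and FOS by 1.49. Genes detected moved in the same direction, with a median of 9179.5 in rafts with 2 cells and 6853 in rafts with 1 cell, and the part of that in these differences was not tested.

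**Figure D2:**
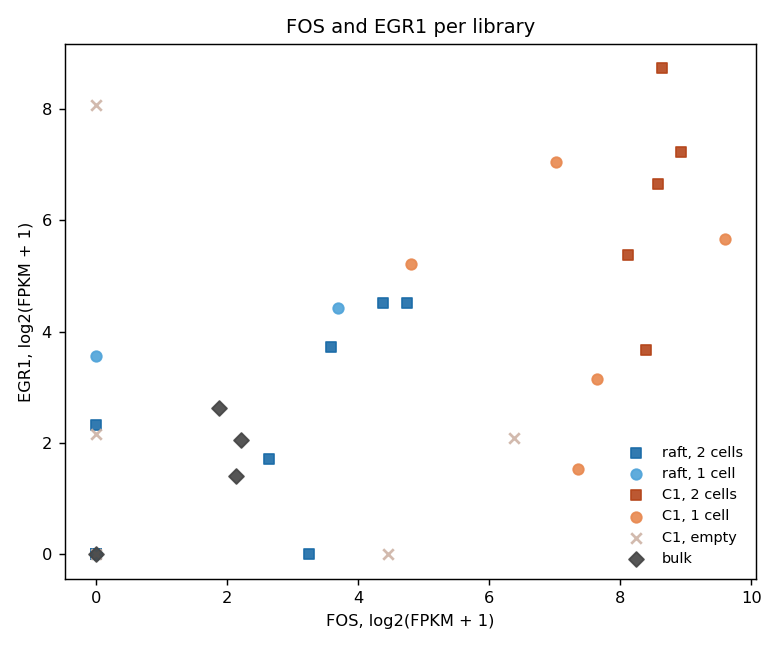
EGR1 against FOS, both as log2(FPKM + 1), with 1 point per library of rafts with cells, C1 captures and bulk. All 10 C1 captures with cells lie to the right of every raft and bulk library, at EGR1 values that overlap those of the rafts, and 1 empty C1 capture, at 82.21 FPKM of FOS, lies among them.

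EGR1 was also among the genes whose pattern was most like that of FOS. Across the 34 bulk, raft and C1 libraries with cells and 8244 genes, Spearman rho with FOS was 0.87 for PER2, 0.86 for EGR1, 0.84 for ATXN1, 0.82 for ZKSCAN1 and 0.82 for NFAT5. Every gene that differs between C1 captures and the other libraries shares that contrast, and rho between FOS and the number of genes detected was 0.56. Within the 10 C1 captures with cells the rho of FOS with EGR1 was 0.50 and with FOSL1 -0.58.

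Other genes of the response gave a mixed picture between rafts and C1 captures. Of 32 other immediate early genes, 22 were measured with 1 cell; 7 were higher and 15 lower in rafts (median -0.84, against -0.27 over all names). TOB1, an antiproliferative factor, differed by -6.44 with no overlap, SGK1, a kinase, by -3.18 and GADD45A, a stress sensor, by 2.24. Of 18 other AP-1 and ATF family genes, 11 were measured, 5 higher and 6 lower, with a median of -0.12. FOSB, the closest relative of FOS, was 0 in all rafts with 1 cell and differed by -2.52 with no overlap. ATF6, an endoplasmic reticulum stress factor, differed by -3.12 and MAFF, a small MAF protein, by -3.10. Feedback and growth factor genes of the ERK pathway, 14 measured, were lower in rafts for 11 (median -0.83), led by the phosphatases DUSP5 (-4.10) and DUSP6 (-3.77) and the ETS factor ETV5 (-3.66). The kinase cascade itself, 17 genes measured, lay higher in rafts for 11 (median 1.62), with MAP2K2 at 3.77 and HRAS at 3.38. Of 4 markers of other cell types measured, 2 were higher and 2 lower in rafts, with KRT10, a squamous keratin, at 5.04 with no overlap and PTPRC, a leukocyte phosphatase, at -1.69. Among ductal and epithelial markers, 2 were higher and 6 lower in rafts, with MUC1 at -4.49, ELF3 at -4.34 and EPCAM at 2.79. Their median was -0.26, against -0.27 over all names. With 2 cells, 5 of these markers were higher and 3 lower in rafts (median 0.94, against 0.02). TMEM45A (-4.47) and ASTN2 (-3.85), listed because water libraries held them, were both higher in C1 captures with no overlap, as FOS was, and their part in the FOS difference was not tested.

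In the gemcitabine experiment ATF3 was above 0 in more rafts at 5 nM than in any other arm, as FOS and EGR1 were. The ATF3 difference from saline missed the threshold in both classes of the fit described below. In untreated rafts ATF3 was 0 in all 8 proliferative and all 8 nonproliferative libraries. In saline rafts, 1 proliferative library had 13 FPKM, and 2 nonproliferative libraries had 13.25 and 8868.57 FPKM. At 2 nM, 1 proliferative library had 32.43 FPKM and 1 nonproliferative library had 3.21 FPKM. At 5 nM, proliferative rafts had 656.18, 289.74, 346.61 and 167.46 FPKM in 4 libraries and 0 in 4, and nonproliferative rafts had 158.34, 136.01, 4.65 and 182.84 FPKM in 4 and 0 in 4. ATF3 was thus above 0 in 8 of 16 rafts at 5 nM, 2 of 16 at 2 nM, 3 of 16 with saline and 0 of 16 untreated, and every pair of groups overlapped at 0. The saline raft with 8868.57 FPKM had 980 genes detected and a Spearman rho with bulk of -0.01, below the 1000 genes needed to enter the fit.

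**Figure D3:**
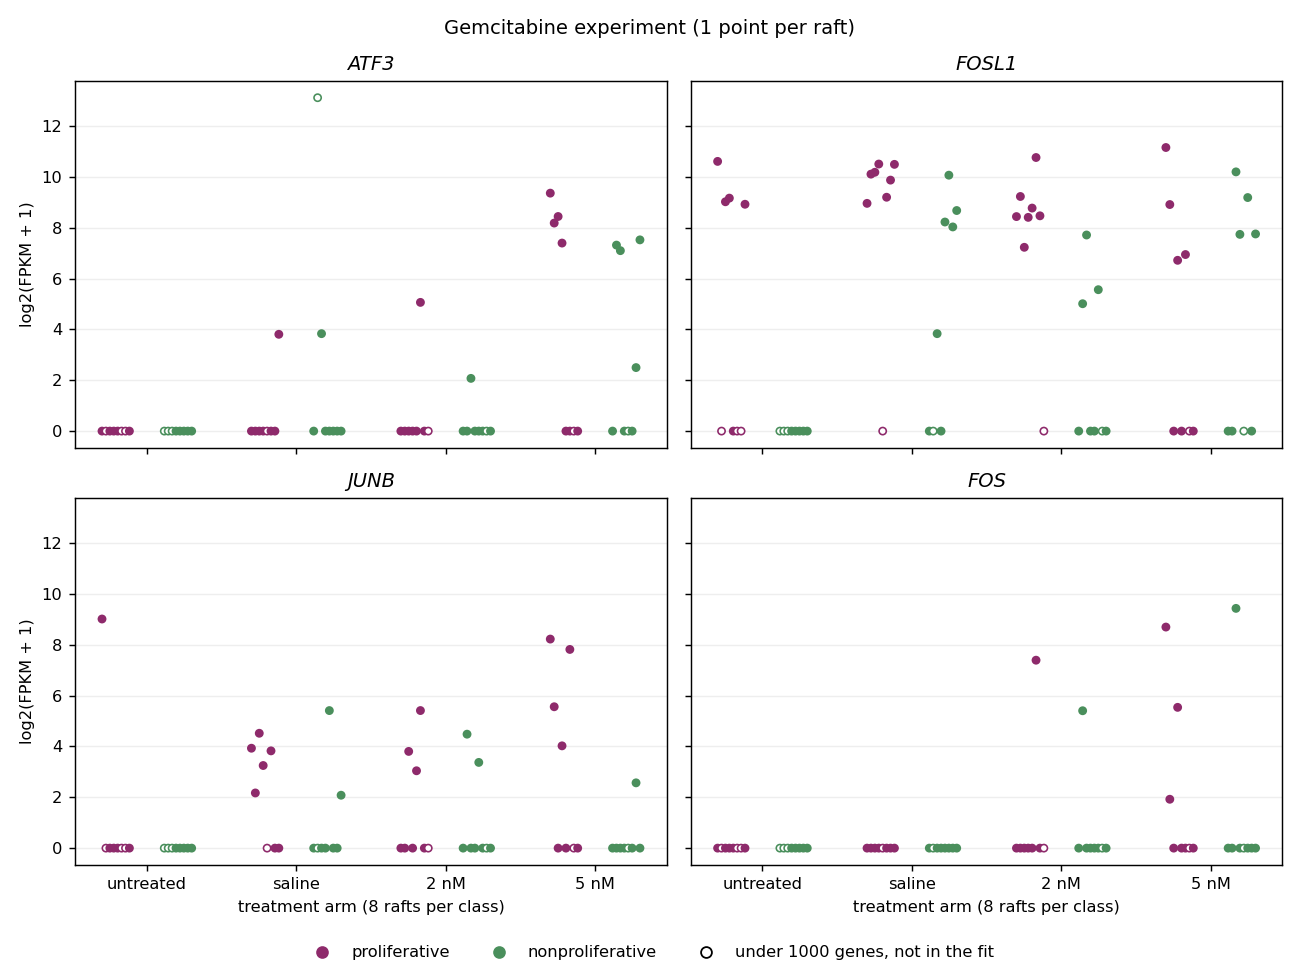
ATF3, FOSL1, JUNB and FOS, log2(FPKM + 1), by treatment arm, with proliferative left of nonproliferative rafts, 1 point per raft, and open points for rafts under 1000 genes. ATF3 was above 0 in 8 of 16 rafts at 5 nM, and FOSL1 was 0 in all 8 nonproliferative untreated rafts.

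The fit held the 52 rafts with at least 1000 genes and 11560 genes, and 7 members passed its filter of detection in at least 8 rafts. FOS and EGR1 did not. Its p-values reflect raft-to-raft spread only, since separate cultures are not named. No label names a library pool. Pools were read from the sample titles, which follow the arms, so arm and pool cannot be told apart. ATF3 passed the detection filter only through the 5 nM arm, so its rank in a 5 nM contrast is partly set by that filter. For 5 nM minus saline in proliferative rafts, ATF3 differed by 4.22 ± 1.15 (SE) on the log2 scale, the 2nd largest upward difference of 11560 genes. Its adjusted p was 0.0911 (limma, Benjamini-Hochberg), so it missed the threshold of 0.05, and no gene was called higher (0%) and 8 were called lower (0.0692%), with 1722 genes at an unadjusted p under 0.05. In nonproliferative rafts the difference was 2.94 ± 1.15 with an adjusted p of 0.335 (0 genes called, 1520 at an unadjusted p under 0.05). The difference between the 2 classes was 1.28 ± 1.62 with an adjusted p of 0.999.

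The ATF3 result depended on which libraries were kept. With all 64 rafts the difference from saline was 3.70 in proliferative rafts (adjusted p = 0.145, limma) and 0.94 in nonproliferative rafts (adjusted p = 0.718). ATF3 met the detection filter only through the 5 nM arm, with 8 detected rafts there and 4 in the other arms of the 52-raft fit, so its calls describe these rafts and are not support for a response. With the 34 rafts whose rho with bulk was at least 0.25, proliferative 5 nM rafts had 4 of 5 libraries above 0 and saline rafts 1 of 7. The difference was then 6.13 ± 1.21 with an adjusted p of 0.0155 by limma, and ATF3 was the only gene called higher out of 10083 (0.00992%). Over both classes, 6 of 8 such rafts at 5 nM were above 0, against 3 of 26 in the other arms. In the 52-raft fit, leaving out saline proliferative raft 38, the 1 saline library of its class above 0, gave 4.77 with an adjusted p of 0.0362. That was the only 1 of the 52 fits leaving out 1 raft in which ATF3 passed. Over those fits its difference ran from 3.46 to 5.02 and its adjusted p reached 0.201. Relative to 2 nM, proliferative 5 nM rafts differed by 4.05 ± 1.15 with an adjusted p of 0.604 by limma (1 gene called higher and 1 lower, 0.00865% each), and by 5.83 with an adjusted p of 0.0396 in the 34 rafts, where 3 genes were called higher (0.0298%). The difference of 2 nM minus saline was 0.18 ± 1.15 in proliferative and -0.25 ± 1.15 in nonproliferative rafts, with an adjusted p of 1 in proliferative and 0.968 in nonproliferative rafts by limma. No gene was called in either class, and 440 genes in proliferative and 613 in nonproliferative rafts were at an unadjusted p under 0.05.

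Across the 52 rafts of the fit the rows most like ATF3 were only loosely so. Among 2855 genes detected in at least 26 of them, rho with ATF3 was 0.61 for a row listed only under a sequence identifier, 0.48 for OSBPL2 and 0.48 for HLA-B, and 0.28 for the number of genes detected. None of the other members was among the 5 closest.

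FOS and EGR1 were above 0 in few rafts of this experiment. FOS had 413.66, 2.79 and 45.45 FPKM in 3 proliferative rafts at 5 nM, 689.32 FPKM in 1 nonproliferative raft at 5 nM, and 167.01 and 41.34 FPKM in 1 raft of each class at 2 nM. It was 0 in the other 26 gemcitabine rafts and in all 32 saline and untreated rafts. Of 13214 names above 0 in at least as many rafts as FOS, 15 (0.114%) were likewise 0 in every saline and untreated raft. The count was made after the FOS values were seen. Its base includes names above 0 in more than 32 rafts, which cannot be 0 in all 32 of these. The share therefore does not measure how rare the FOS pattern is. EGR1 had 433.21, 3.02 and 1.60 FPKM in the same 3 proliferative rafts at 5 nM, 0.89 FPKM in 1 nonproliferative raft at 5 nM in which FOS was 0, and 72.92 and 13.33 FPKM in the same 2 rafts at 2 nM. Unlike FOS it was also above 0 in saline rafts, at 6.95, 10.24 and 0.98 FPKM.

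**Figure D4:**
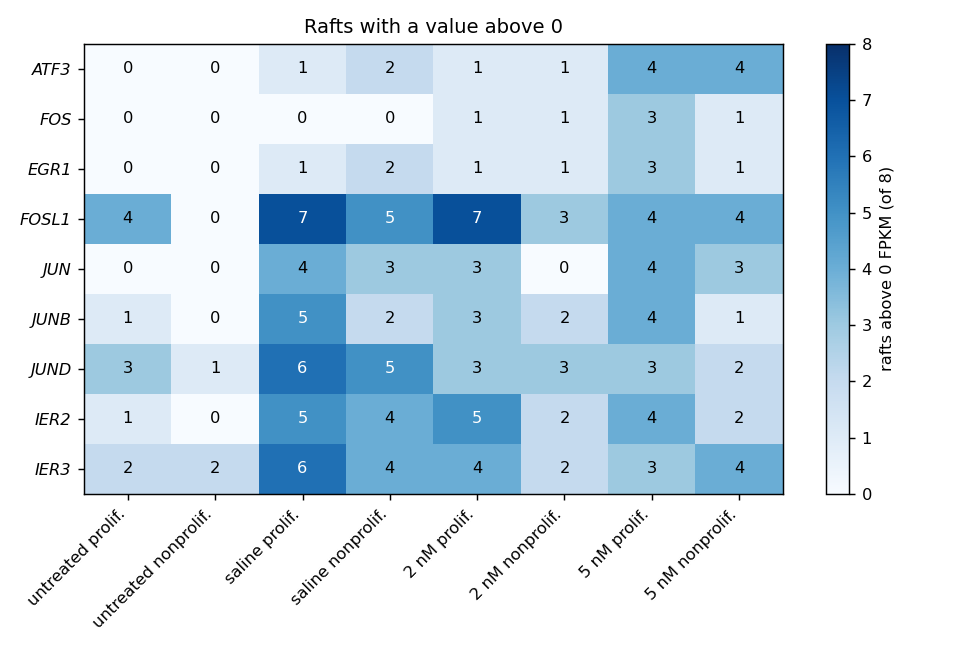
Number of rafts, of 8 in each arm and class, in which each member was above 0 FPKM, with members as rows and groups as columns. FOS was above 0 in no untreated or saline raft, and FOSL1 was above 0 in 7 of 8 proliferative rafts with saline and at 2 nM.

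The members came together in a few rafts. All 9 were above 0 in proliferative rafts 71, 72 and 74 at 5 nM and 56 at 2 nM, and in no other raft of the experiment. These had 7007, 10075, 9109 and 10206 genes detected. No saline raft had more than 7 members above 0, including proliferative rafts 31, 32 and 34 with 9525, 9195 and 10099 genes. Some gemcitabine rafts with many genes also lacked members. At 2 nM, proliferative rafts 53 and 55, with 9494 and 8379 genes, had ATF3, FOS and EGR1 at 0. Nonproliferative raft 62 at 2 nM, with 9074 genes, had ATF3 and JUN at 0. Nonproliferative raft 87 at 5 nM, with 10198 genes, had FOS, FOSL1, JUN and EGR1 at 0. The part of the drug and of library content in this pattern was not tested.

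FOSL1 was the member that went with the proliferative score. Untreated proliferative rafts had 1560.95, 518.54, 572.76 and 484.35 FPKM in 4 libraries and 0 in 4, whereas all 8 untreated nonproliferative rafts had 0. With saline, proliferative rafts ran from 0 to 1452.1 FPKM (median 1019.5), against 0 to 1071.5 FPKM (median 136.93) in nonproliferative rafts. At 2 nM the ranges were 0 to 1735.4 FPKM (median 349.51) in proliferative and 0 to 208.9 FPKM (median 0) in nonproliferative rafts. At 5 nM they were 0 to 2279.9 FPKM (median 52.1) in proliferative and 0 to 1172.8 FPKM (median 106) in nonproliferative rafts. The classes overlapped in every arm, and at 5 nM the order of the medians was turned.

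Averaged over the arms, proliferative rafts were higher in FOSL1 by 4.47 ± 1.03 (SE) with an adjusted p of 0.00399 by limma, and it ranked 33rd of 11560 genes by difference. JUNB rose by 1.80 ± 0.62 with an adjusted p of 0.0434. These 2 of 7 members stand beside 11.4% of genes called higher and 0.753% called lower. IER2 (1.41, adjusted p = 0.119), JUND (0.73), JUN (0.67), IER3 (0.56) and ATF3 (0.43) did not pass, and the median over the 7 was 0.73 against 0.58 over all genes. Within single arms, with the same limma fit, FOSL1 differed by 7.54 untreated, 4.36 with saline, 6.15 at 2 nM and -0.16 at 5 nM, and none of these passed (adjusted p between 0.337 and 0.992; 2 genes or 0.0173% were called higher at 2 nM and none in the other arms). Whether the 5 nM arm differs from the others was tested against saline alone, and that difference was -4.52 ± 2.79 with an adjusted p of 0.999.

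Library content differed between the classes in some arms. At 2 nM the median number of genes detected was 4683.5 in proliferative and 1535 in nonproliferative rafts, while in untreated rafts it was 1510 in proliferative and 1873 in nonproliferative ones. With saline it was 7166 in proliferative and 6760.5 in nonproliferative rafts, and at 5 nM it was 3065 in proliferative and 2749 in nonproliferative rafts. The summed ductal and epithelial markers had a median of 3630.8 FPKM in proliferative and 558.54 FPKM in nonproliferative saline rafts, and of 5213 FPKM in proliferative and 124.09 FPKM in nonproliferative rafts at 2 nM. In untreated rafts it was 991.47 FPKM in proliferative and 646.79 FPKM in nonproliferative ones, and at 5 nM 2578.3 FPKM in proliferative and 1270.9 FPKM in nonproliferative rafts. Their part in the FOSL1 difference was not tested beyond the settings that follow. FOSL1 differed by 3.33 ± 0.73 in the 34 rafts with a rho of at least 0.25 (adjusted p = 0.00873, limma; 0.714% of genes called higher) and by 3.83 ± 0.96 with genes detected as a covariate (adjusted p = 0.0215). JUNB had an adjusted p of 0.389 and 0.221 under the same settings, and it missed the threshold in 26 of the 52 fits that left out 1 raft, where its difference ran from 1.35 to 1.98 and its adjusted p reached 0.101.

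**Figure D5:**
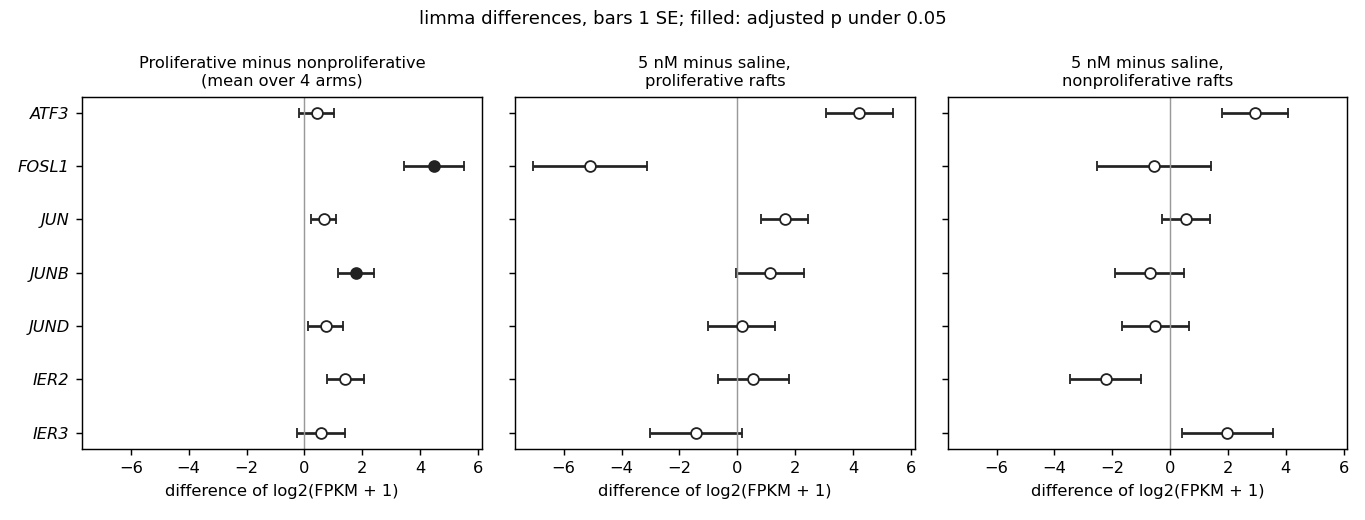
Difference in log2(FPKM + 1) of the 7 members in the fit, with bars of 1 SE, for proliferative minus nonproliferative rafts and for 5 nM minus saline in each class; filled points have an adjusted p under 0.05. FOSL1 and JUNB are filled in the first panel, and no member is filled for 5 nM minus saline.

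JUNB, the dimer partner whose call was the weaker of the pair, was read from few rafts. It was above 0 in 1 of 8 proliferative untreated rafts (515.57 FPKM), 5 of 8 with saline, 3 of 8 at 2 nM and 4 of 8 at 5 nM. In nonproliferative rafts it was above 0 in 0 of 8 untreated, 2 of 8 with saline, 2 of 8 at 2 nM and 1 of 8 at 5 nM.

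For 5 nM minus saline the remaining members did not pass in either class. In proliferative rafts FOSL1 differed by -5.08 ± 1.97 (adjusted p = 0.202, limma), JUN by 1.64 ± 0.82 (0.331), IER3 by -1.43, JUNB by 1.13, IER2 by 0.56 and JUND by 0.16. In nonproliferative rafts IER2 differed by -2.22, IER3 by 1.98, JUNB by -0.70, FOSL1 by -0.56, JUN by 0.55 and JUND by -0.51. JUN, the founding AP-1 subunit, had 33.05, 3.99, 110.94 and 20.38 FPKM in the 4 proliferative 5 nM rafts in which ATF3 was above 0 and 0 in the other 4, against at most 5.71 FPKM in proliferative saline rafts. IER3 reached 694.31 and 750.75 FPKM in nonproliferative rafts at 5 nM, against at most 35.64 FPKM in nonproliferative saline rafts. The raft with 750.75 FPKM had 10198 genes but a rho with bulk of -0.02.

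Saline rafts, compared with untreated ones over both classes, were higher in FOSL1 by 3.95 ± 1.53 (adjusted p = 0.0903, limma) and in IER2 by 2.30 ± 0.95 (adjusted p = 0.106), short of the threshold, while 0.381% of genes were called higher. IER2 was above 0 in 9 of 16 saline and 1 of 16 untreated rafts, and JUN in 7 of 16 saline and 0 of 16 untreated rafts. With all 64 rafts FOSL1 and IER2 passed (4.40 and 2.15, adjusted p of 0.0221 and 0.0448), where 25.9% of genes were called higher, and with the 34 rafts of rho at least 0.25 FOSL1 passed (4.61, adjusted p = 0.00946), where 5.55% were. With genes detected as a covariate FOSL1 differed by 2.44 and IER2 by 0.92 (adjusted p of 0.991 for both), limma called no gene (494 at an unadjusted p under 0.05), and the median over all genes was 0.14. Leaving out saline nonproliferative raft 41 gave FOSL1 4.42 with an adjusted p of 0.0486, and leaving out untreated proliferative raft 13 gave IER2 2.83 with an adjusted p of 0.0423. Without the covariate the median over all genes was 1.09.

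Among related genes, some rose with FOSL1 in proliferative rafts, at about the background share. Of 11 other AP-1 and ATF family genes tested, FOSL2, the paralog encoding FRA-2, rose by 1.36 ± 0.44 (adjusted p = 0.0311, limma) and ATF7 by 1.94 ± 0.65 (0.0371). Of 23 other immediate early genes, PLK3 (1.81), MCL1 (1.95), which protects against cell death, and CTGF (1.51), a matricellular protein, rose. Of 15 feedback and growth factor genes of the ERK pathway, DUSP6 (2.30) and ETV5 (1.5) rose. No member of these lists fell. For 5 nM minus saline no gene of these lists passed in either class. Of 8 ductal and epithelial markers tested, the keratins KRT7 (3.91) and KRT8 (3.68) rose with the proliferative score. Of the 8, 7 differed upward and 1 downward. ASTN2 (-2.93), PCSK5 (-3.07) and TMEM45A (-3.00), genes listed because water libraries held them, fell.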

How the data were processed

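Library preparation used SMARTer cDNA and Nextera XT for all 120 libraries, per the labels. The authors quantified reads with RSEM and used hg19, per the submitters' processing notes, and deposited 1 table of FPKM values. Totals of 65 libraries over 3000 genes varied by a CV of 12.1%, and by 6.5% after multiplication by transcript length (69.3% of rows matched), so the deposited FPKM behave partly as TPM would. Groups came from the labels. The members and gene lists were chosen with earlier results of these data known. Genes named outside the members were the passing ones with the smallest p per list (up to 4), or the 3 with the largest difference in an isolation comparison; some genes that this rule names are not reported here. Isolation groups were compared by difference of means of log2(FPKM + 1), pseudocount 1. The gemcitabine experiment was fitted in 1 limma 3.58.1 model (limma-trend, R 4.3.3, two-sided, Benjamini-Hochberg over all genes tested, threshold 0.05), checked on simulated data. Detection meant an FPKM of at least 1. The correlation with bulk was Spearman's, over 10767 genes. Alternatives were a pseudocount of 0.1, no gene filter, other library filters, quantile normalization, rescaled totals, genes detected as a covariate, single arms or raft sets, and leaving out each library. Python 3.11.15, pandas 2.3.3, scipy 1.17.1 and matplotlib 3.10.9 were used. Promoters came from a build other than hg19 and were joined by symbol only.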

Additional observations from a re-analysis of the deposited data

Results flagged for a closer look

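Of 109 sets of 1 gene in 1 group of 4 to 10 libraries, 30 had a library far from the rest by Dixon's rule. Chance alone does this in about 1 of 20 groups of normally spread values. In 18 of the 30 all other libraries were at 0, which fixes the flag whatever the value, so that rate does not apply to them. All values are FPKM.

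For ATF3 the outlying libraries were empty C1 capture 96 (628.95), C1 capture 5 with 1 cell (6.68), raft 16 with 2 cells (0.63), nonproliferative rafts 63 at 2 nM (3.21) and 42 with saline (8868.57), and proliferative rafts 56 at 2 nM (32.43) and 38 with saline (13). The 2 highest of these came from libraries with 865 and 980 genes detected.

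For FOS they were raft 12 with 1 cell (11.89), rafts 62 (41.34) and 56 (167.01) at 2 nM, raft 83 at 5 nM (689.32), and bulk library 1, which alone in its group was at 0. For EGR1 they were empty C1 capture 81 (269.44), the same 2 rafts at 2 nM (13.33 and 72.92), rafts 86 (0.89) and 71 (433.21) at 5 nM and saline raft 34 (0.98).

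For FOSL1 the outlying libraries lay low, at 0, in proliferative rafts 58 at 2 nM and 35 with saline, which had 472 and 735 genes detected. For JUN they were empty C1 capture 31 (19.86) and saline raft 45 (5.65). JUNB was far above the rest in saline raft 45 (41.54), untreated raft 11 (515.57) and raft 87 at 5 nM (4.93). JUND was 0 in raft 4 with 2 cells, and high in saline raft 42 (641.66) and untreated raft 28 (105.35). IER2 stood alone in untreated raft 13 (37.05) and IER3 was high in untreated raft 24 (237.19).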

How the results depend on the processing

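With a pseudocount of 0.1, 6 members were lower in rafts than in C1 captures with 1 cell, 2 were lower in rafts with 1 cell than in bulk and 4 were higher in rafts with 2 cells than with 1. With quantile normalization these last were 0, and 2 members were higher in C1 captures with 1 cell than in empty ones. With libraries rescaled to the same total, 1 member was higher in rafts than in C1 captures with 2 cells, as with raft set 2 alone, which gave 4 lower with 1 cell. Raft set 1 alone gave 2 higher with 2 cells than with 1. Shares of all names past the margin were not computed for these settings or with 1 library left out. These counts are therefore not read as a result about the members. For the proliferative score, 1 member was called with no gene filter (754 of 20603 genes called higher) or all 64 libraries (608 of 11643). Also 1 member was called with rho of at least 0.25 (72 of 10083), quantile normalization (715 of 11560) or the covariate (215 of 11560). Within any single arm 0 members were called. For 5 nM minus saline and 5 nM minus 2 nM, both in proliferative rafts, 1 member was called with rho of at least 0.25. For saline minus untreated, 2 were called with all 64 libraries and 1 with rho of at least 0.25.

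In the isolation comparisons, signs that turned with the raft set are given beside the results above. The gemcitabine contrasts that changed sign were as follows. For the proliferative score, ATF3 was -0.0376 with all 64 libraries and -0.0036 within saline, FOSL1 -0.16 within 5 nM, JUND -0.55 within 2 nM, IER2 -0.0948 within saline, and IER3 -1.37 with rho of at least 0.25, -0.58 with the covariate and -1.91 within 5 nM. For 5 nM minus saline, JUND was -1.02 with pseudocount 0.1 and IER3 0.29 with the covariate in proliferative rafts, and FOSL1 was 0.42 with the covariate in nonproliferative rafts. For 2 nM minus saline in nonproliferative rafts, ATF3 was 0.69 with rho of at least 0.25, 0.003 with quantile normalization and 0.37 with the covariate. The causes were not tested.

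Leaving out 1 library at a time gave 2 to 4 members lower and 1 higher for rafts against C1 with 1 cell, 2 to 3 lower and 1 to 2 higher with 2 cells, 2 to 4 higher for C1 against bulk, 1 to 2 higher for 2 cells against 1 on rafts and 3 to 5 higher for C1 against empty captures. Members called were 1 to 2 for the proliferative score, 0 to 1 for 5 nM minus saline in proliferative rafts and 0 to 1 for saline minus untreated. JUND ran from -0.58 to 0.56 and IER2 from -0.18 to 1.12 for 5 nM minus saline in proliferative rafts, FOSL1 from -1.49 to 0.27 in nonproliferative rafts, and ATF3 from -0.54 to 0.72 in proliferative and from -0.55 to 0.30 in nonproliferative rafts for 2 nM minus saline. Depth is unknown, so a member at 0 cannot be called absent. No paired analysis was possible because the gemcitabine groups share no replicate number and the raft and C1 groups that share numbers were compared without a test.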
